A study of Homo sapiens with 2 samples.

Results

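The 10 genes described here mark hepatocytes or liver tumours: ALB, AFP, TTR, RBP4, TF, AHSG, AMBP, ASGR1, TM4SF4 and GPC3. They were taken by gene symbol from 33671 genes named in either library, and in the locus shared by TF and the pseudogene TFP1 the rows were divided by exon position on hg38. All 10 had rows in both libraries, and 7 were measured, meaning that they reached 1 FPKM (fragments per kilobase of transcript, scaled to the fragments of the library) in at least 1 library. RNA came from LM3, a human hepatocellular carcinoma line whose liver origin is given by the labels, with 1 wild-type library and 1 library labelled NCOA5 knockout. The knockout carries the name KO-1 in its title, and how it was made is not stated in the labels. NCOA5, a coregulator of nuclear receptors, stood at 20.03 FPKM for wild type and 25.4 FPKM in the library labelled knockout. Its total RNA level was thus not lower there, and that library is called knockout-labelled. The number of listed NCOA5 events (exons and splices, explained below) differed. The wild-type library had 6, with 5 above 0, and the other had 14, with 12 above 0. A total does not show whether the NCOA5 RNA was altered in form, and this was not tested. With 1 library per genotype there is no replicate check and no test, and each difference compares these libraries, not the genotypes.

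Hepatocytes make most of the proteins of blood plasma, and the genes for these proteins are switched on together during liver development by a network of liver transcription factors that includes HNF4A. ALB (albumin) and AFP (alpha-fetoprotein) are neighbouring genes of one family. AFP is the fetal member, is shut down after birth, and is used as a serum marker of hepatocellular carcinoma. GPC3 (glypican) is a proteoglycan of the cell surface that is also used as a liver tumour marker.

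The deposited values are FPKM of start events, end events and splicing events. A start event is a first exon, defined by its junction to the next exon, and an end event is a last exon. These are listed exons, and where RNA synthesis began was not measured. The total level of a gene is the larger of its summed start and its summed end FPKM. Events are listed incompletely, so a total can be too low: in 46.4% of genes above 0 in both libraries the 2 sums lay within 5% of each other. Depth is unknown, and an exact 0 can be a failed estimate. Log2 ratios are given as knockout-labelled over wild type after adding 1 FPKM to each level, a scale on which differences of low genes come out too small. A gene was called at 2-fold or more on that scale.

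Of the 10 marker genes 4 reached 5 FPKM in at least 1 library (RBP4, TF, AFP and AMBP). Their summed level was 69.3 FPKM in wild type, or 0.014% of the summed level of all genes, and 82.4 FPKM, or 0.0169%, in the knockout-labelled library. RBP4 alone made up 56.2% and 57.9% of these sums. In wild type the order of levels ran RBP4, TF, AFP, AMBP, AHSG, ALB, TTR, TM4SF4, ASGR1 and GPC3, and the spread that would separate neighbours in this order is unknown. In the knockout-labelled library RBP4, TF, AFP and AMBP kept the first places, and ALB and TM4SF4 stood above AHSG.

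**Figure D1:**
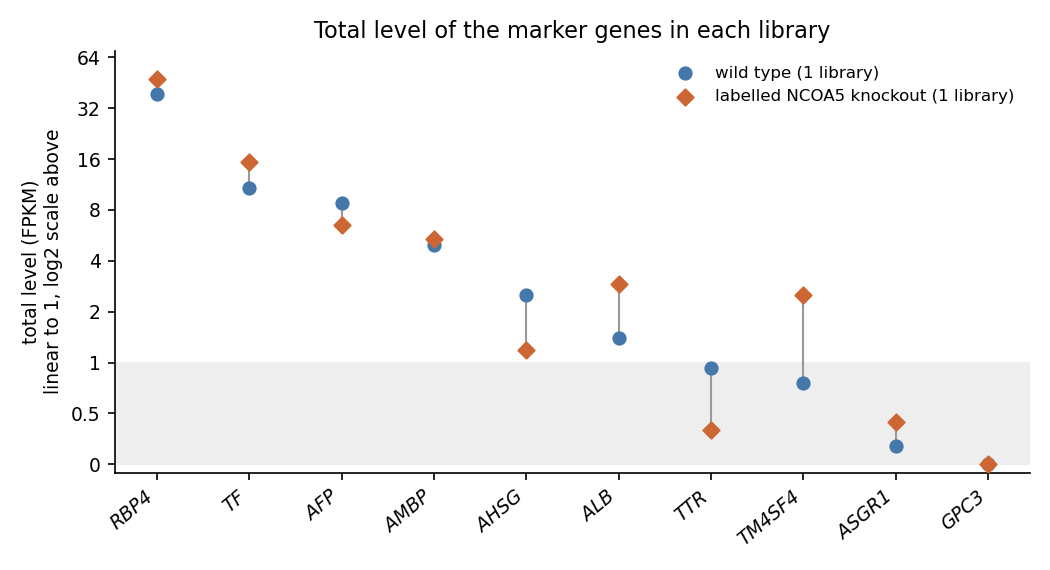
Total level of each marker gene in the wild-type library (circles) and the knockout-labelled library (diamonds), in FPKM, on an axis that is linear up to 1 FPKM and on a log2 scale above it. RBP4 is highest in both, at 38.9 and 47.7 FPKM; the shaded band below 1 FPKM holds TTR, ASGR1 and GPC3 in both libraries and TM4SF4 in wild type.

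None of the 7 measured marker genes was called. The counts were 0 higher and 0 lower, against 6.64% of 10925 measured genes called in either direction, 2.88% higher and 3.75% lower. All 7 were above 0 in both libraries, where the shares over all genes were 3.22% in either direction, 1.21% higher and 2.01% lower. The measured markers above 0 in log2 ratio were 5 (TM4SF4, ALB, TF, RBP4 and AMBP), and 2 (AFP and AHSG) were below 0. The median log2 ratio of the 7 was 0.29, and that of all measured genes was 0.0094. TM4SF4 enters this count and this median through the knockout-labelled library alone, where it is higher. At a minimum of 5 FPKM, which TM4SF4 did not reach, the median of 4 marker genes was 0.19. Totals do not show which start or exon a level comes from, and for ALB, AFP, RBP4, TF and AHSG these differed.

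**Figure D2:**
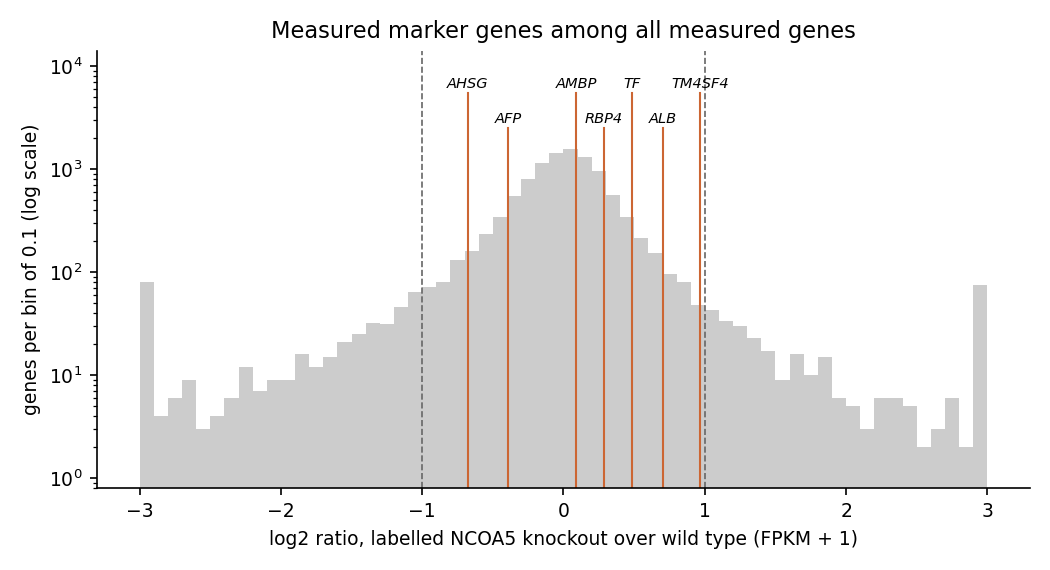
Number of measured genes (log scale) by log2 ratio of knockout-labelled over wild-type FPKM + 1, in bins of 0.1, with values beyond 3 in either direction placed in the end bins. Vertical lines mark the 7 measured marker genes, all between the dashed lines at 2-fold, from AHSG at −0.68 to TM4SF4 at 0.97.

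ALB encodes the main protein of plasma, which carries fatty acids and hormones. The gene (ENSG00000163631.16) lies on chromosome 4, 73397114 to 73421412, plus strand. Its total level was 1.41 FPKM in wild type against 2.92 FPKM in the knockout-labelled library, at percentiles 27.5 and 36.2 of genes above 0. The start and end sums were equal in each library. The ratio of the levels was 2.08, while the log2 ratio of FPKM + 1 was 0.70, short of 2-fold, so the call depends on the pseudocount. The annotated start of the full-length transcript (junction at 73404406) held all of the wild-type start level and 2.45 FPKM, or 84.0%, in the knockout-labelled library. The remaining 0.468 FPKM there came from a start in a later exon (73409340 to 73409487), listed at 0 in wild type.

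ALB RNA was listed with and without exon 14, the exon of 68 bases (73420254 to 73420321) that holds the last 42 coding bases and the stop codon. The form without it stood at 0.382 FPKM in wild type, or 27.2% of both forms, and at 1.27 FPKM, or 43.5%, in the knockout-labelled library. The form with it stood at 1.02 and 1.65 FPKM. Both forms were higher in the knockout-labelled library. Of 36 paired splicing events of the marker genes, 14 had at least 1 FPKM over both forms in each library, and this was the 1 event among them with both forms above 0. It fell short of the minimum of 5 FPKM set for reporting shares, so the shares rest on low values. Joining exon 13 to exon 15 gives another reading of the last codons. The 2 coding ends are printed because they are what the skipped exon exchanges, from GENCODE 29 transcripts on hg38, plus strand, with the stop codon in capitals: the exon 14 end of ALB-201 at chr4:73420254-73420298 and the end in the last exon of ALB-214, the transcript without that exon, at chr4:73421092-73421121.
ALB-201: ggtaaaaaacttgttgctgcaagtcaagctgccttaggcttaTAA
ALB-214: cctaccatgagaataagagaaagaaaaTGA

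AFP lies 9.7 kb beyond ALB on the same strand (ENSG00000081051.7, chromosome 4, 73431138 to 73456174). Its start sum was 8.80 FPKM for wild type and 6.48 FPKM for knockout-labelled cells, a log2 ratio of −0.39. Almost none of it was listed at the annotated start of the coding transcripts. The start of the coding transcripts (junction at 73436347) had 0 FPKM in the wild-type table, while the knockout-labelled table gave it 0.302 FPKM, or 4.67% of the start sum. All of the wild-type start level and 6.17 FPKM, or 95.3%, of the other library came from a start inside the gene, 14.3 kb after the start of exon 1. This start lies in intron 10, 105 bases before exon 11 of 15 in wild type and 149 bases before it in the knockout-labelled library, and runs on into exon 11 (junction at 73450753).

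RNA from this start can hold at most the last 5 of the 15 exons. GENCODE 29 lists a transcript with this junction, AFP-204, as a retained intron with no coding sequence. The first 10 exons hold 1289 of the 1827 coding bases of AFP, and 538 lie from exon 11 on. The AFP end event (junction at 73455631) stood at 6.69 FPKM in wild type against 4.996 FPKM in the knockout-labelled library, below the start sum in both. The small exon 14 of 55 bases (73455236 to 73455290) was listed as included at these same values, and its skipping at 0 in both. The share of the start level at the principal start was compared over 9126 genes. These had a principal transcript (GENCODE's mark for the main coding form) and start sums of at least 1 FPKM in both libraries. Of them 316, or 3.46%, had less than 10% of the start level at the principal start in both, and the median share was 100%. AFP belongs to these 316 genes.

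The first coding exon of AFP, absent from the internal form, is printed to show what that form lacks: chr4:73436263-73436347 on hg38, plus strand, from AFP-202, with the initiation codon in capitals.
AFP exon 1: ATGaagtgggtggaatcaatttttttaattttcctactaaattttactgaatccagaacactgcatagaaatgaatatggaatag

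The 150 bases before the RefSeq transcript starts of AFP and ALB are shown next. The principal starts of these genes were listed at 0 to 0.302 FPKM and at 1.41 to 2.45 FPKM. Those listed start events begin earlier, at 73436163 for AFP and 73404239 for ALB, so the end of each window lies within the listed first exon. Both windows come from RefSeq on GRCh38.p14, plus strand, chr4:73436071-73436220 for AFP and chr4:73404137-73404286 for ALB. Promoters were found there for 7 of the 10 genes. Capitals mark TATAAA, a common core promoter element, which was searched on both strands, as was CCAAT.
AFP: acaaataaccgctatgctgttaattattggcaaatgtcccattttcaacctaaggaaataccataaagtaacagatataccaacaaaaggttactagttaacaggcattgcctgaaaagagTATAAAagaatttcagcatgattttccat
ALB: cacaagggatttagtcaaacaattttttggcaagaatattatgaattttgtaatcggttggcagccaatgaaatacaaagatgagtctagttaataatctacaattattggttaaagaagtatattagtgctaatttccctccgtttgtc

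Counted from the RefSeq transcript start, TATAAA began at −29 in AFP, inside the listed AFP start event. It was not in the ALB window, and 6.71% of 35116 RefSeq promoter windows of 150 bases hold it. CCAAT, a common promoter element, was in both windows and in 23.5% of all. The liver factor HNF4A stood at 17.5 and 17.4 FPKM. A match of letters is a description and not a bound site.

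**Figure D3:**
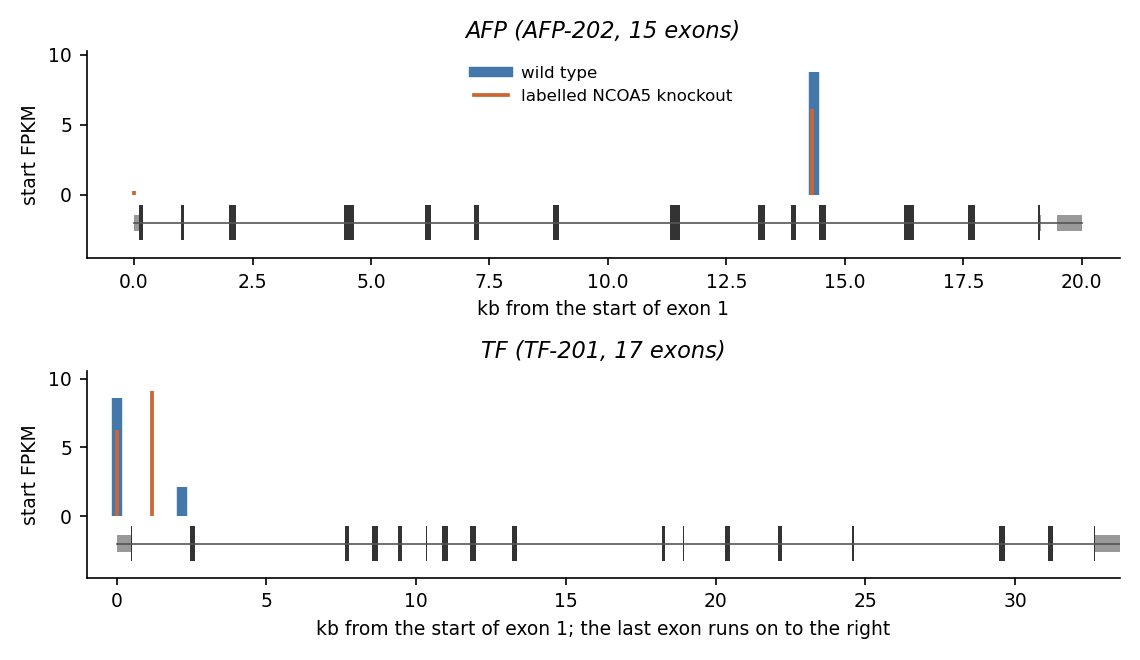
Start events of AFP (top) and TF (bottom) along the gene, in kb from the start of exon 1. Boxes are exons (tall and dark where coding), and bars give the FPKM of each start event above 0, wide for wild type and narrow for the knockout-labelled library. AFP starts at 8.80 and 6.17 FPKM just before exon 11; TF starts at exon 1 in both libraries (8.63 and 6.31 FPKM), and at different further starts in each.

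TTR (transthyretin) carries thyroid hormone and, bound to RBP4, keeps the vitamin A carrier in the circulation. TTR (ENSG00000118271.10, chromosome 18, 31557010 to 31599021, plus strand) stood at 0.942 FPKM in wild type against 0.336 FPKM in the knockout-labelled library, both under the 1 FPKM minimum, and was therefore not counted. All of it came from the principal start, and the 1 listed end event, of the transcript TTR-205, was at 0 in both. RBP4, its partner, was more than an order of magnitude higher.

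RBP4 (retinol-binding protein) takes vitamin A from the liver to other tissues. The gene (ENSG00000138207.13) lies on chromosome 10, 93591687 to 93601744, minus strand. Its total level was 38.9 FPKM for wild type and 47.7 FPKM for knockout-labelled cells, a log2 ratio of 0.29, and the start and end sums were equal in each library. It was the highest of the marker genes, at percentiles 84.1 and 87.6 of genes above 0. Its forms differed. The principal start (93601171 to 93601226) gave 32.9 and 47.7 FPKM, a log2 ratio of 0.52, while a start farther upstream (93601666 to 93601744) stood at 6.07 FPKM, or 15.6%, in wild type and was listed at 0 in the knockout-labelled library. The median log2 ratio of the 415 measured genes of chromosome 10 was −0.19, with 306 of them below 0, so RBP4 stood on the other side of 0 from most of its chromosome.

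The starts of RBP4 differ in what they encode. The transcript of the principal start, RBP4-201, begins its coding sequence in exon 2, with the signal peptide that sends the protein out of the cell. The upstream transcript, RBP4-203, begins coding in its own first exon. They encode 201 and 199 codons. The first coding exons are printed to show the 2 different beginnings, from GENCODE 29 transcripts on hg38, minus strand, with the initiation codon in capitals: chr10:93600918-93601028 for RBP4-201 and chr10:93601666-93601716 for RBP4-203.
RBP4-201: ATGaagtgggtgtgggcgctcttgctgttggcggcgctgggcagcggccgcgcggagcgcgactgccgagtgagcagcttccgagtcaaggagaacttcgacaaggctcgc
RBP4-203: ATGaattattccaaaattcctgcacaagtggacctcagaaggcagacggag

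The 150 bases before each start, from RefSeq on GRCh38.p14, minus strand, lie at chr10:93601236-93601385 for the principal start and chr10:93601745-93601894 for the upstream start. TATAAA, in capitals, began at −31 from the principal start and was not in the upstream window.
RBP4 principal: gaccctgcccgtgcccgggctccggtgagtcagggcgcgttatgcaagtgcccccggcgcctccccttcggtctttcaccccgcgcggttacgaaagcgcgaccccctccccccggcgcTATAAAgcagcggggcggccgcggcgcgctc
RBP4 upstream: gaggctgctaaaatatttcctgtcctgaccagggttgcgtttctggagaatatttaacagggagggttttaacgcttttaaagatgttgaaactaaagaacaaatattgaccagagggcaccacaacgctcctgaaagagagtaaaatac

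TF (transferrin) carries iron in plasma. The gene (ENSG00000091513.15) lies on chromosome 3, 133745956 to 133796640, plus strand. Its start sum was 10.7 FPKM in wild type against 15.4 FPKM in knockout-labelled cells, a log2 ratio of 0.48, and no end event of TF itself was listed, so the sum has no second reading. How reads shared with the pseudogene TFP1 were counted is unknown, which makes the TF values uncertain. The total and the full-length form differed in direction. The principal start (exon 1, junction at 133746483) stood at 8.63 FPKM for wild type and 6.31 FPKM for knockout-labelled cells, a log2 ratio of −0.40. It made up 80.3% of the start sum in wild type and 40.9% in the other library, a change of −39.4 percentage points.

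The rest of TF came from starts within intron 1, a different one in each library. In wild type 2.11 FPKM was listed from 133748140, the start of the retained-intron transcript TF-214. In the knockout-labelled library 9.10 FPKM was listed from 133747150, the start of TF-209, a transcript without coding annotation, 667 bases beyond exon 1. Each of these starts was listed at 0 in the other library. Neither holds exon 1, with the 43 coding bases that open the signal peptide, printed here because these starts lack it: chr3:133746441-133746483 on hg38, plus strand, from TF-201, initiation codon in capitals.
TF exon 1: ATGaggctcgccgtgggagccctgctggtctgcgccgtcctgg

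From exon 3 on the TF forms met again. The run of exons from 133753595 to 133756337 was listed as included at 10.7 and 15.4 FPKM, and the alternative exon at 133774879 to 133774939 as skipped at the same values, with 0 for the other form in both libraries. Of the 9126 genes above, 9.53% had a share at the principal start that moved by at least 30 percentage points in either direction. In 418 of them, or 4.58%, it was lower in the knockout-labelled library, as in TF. AHSG, described below, moved the other way, by 52.1 points. The other starts of TF were listed at 0 in both libraries. The receptor for transferrin, TFRC, stood at 154 and 165 FPKM, far above its ligand, and TFR2, the receptor of hepatocytes that senses iron, was listed at 0 in both.

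**Figure D4:**
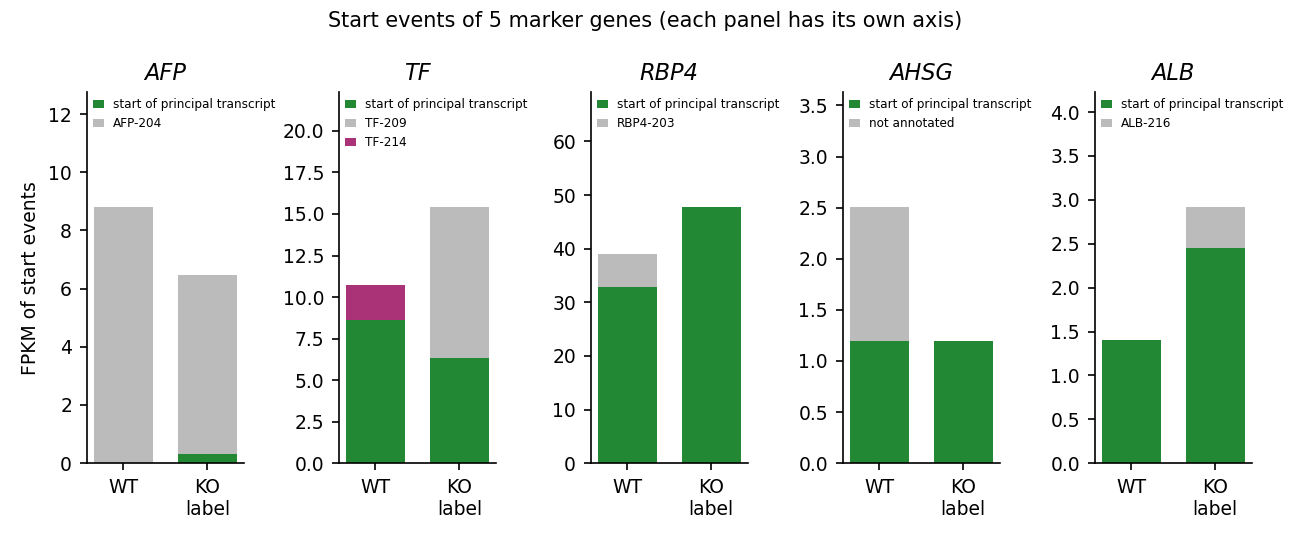
FPKM of the start events of AFP, TF, RBP4, AHSG and ALB in the wild-type library (WT) and the knockout-labelled library (KO label), stacked, with the start of the GENCODE principal transcript in green and other starts named by their transcript; each panel has its own axis. AFP is nearly all outside its principal start, and TF changes from 80.3% to 40.9% at its principal start.

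AHSG (fetuin-A) binds calcium phosphate in plasma. The gene (ENSG00000145192.12) lies on chromosome 3, 186612923 to 186621318, plus strand. Its start sum was 2.50 FPKM in wild type against 1.19 FPKM in knockout-labelled cells, a log2 ratio of −0.68. The annotated start accounted for none of this difference, at 1.20 and 1.19 FPKM. The other 1.30 FPKM of wild type, or 52.1%, came from a start at 186618386 to 186618491 whose junction is in no GENCODE 29 transcript of the gene and which has no row in the knockout-labelled table. The end events disagreed with the start events: the last exon was listed at 1.19 FPKM in the knockout-labelled library and had no row in wild type, so that end events alone gave a log2 ratio of 1.13 with the missing row counted as 0.

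AMBP encodes a precursor that is cut into alpha-1-microglobulin and bikunin, a protease inhibitor. The gene (ENSG00000106927.11) lies on chromosome 9, 114060127 to 114078472, minus strand. It stood at 4.99 FPKM for wild type and 5.38 FPKM for knockout-labelled cells, a log2 ratio of 0.09, the smallest in size among the measured marker genes. All of it came from the principal start in both libraries, and its 1 listed end event, of the transcript AMBP-202, was at 0 in both. ITIH2, a heavy chain to which bikunin is joined, stood at 84.2 and 85.4 FPKM, while ITIH1 and ITIH4 were listed at 0 in both libraries and ITIH3 at 0 and 0.023 FPKM. AMBP and ITIH2 thus stood close to the same level in both libraries.

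TM4SF4 encodes a tetraspan membrane protein of liver and intestine. The gene (ENSG00000169903.6) lies on chromosome 3, 149473974 to 149503281, plus strand. It stood at 0.802 FPKM in wild type against 2.53 FPKM in the knockout-labelled library. The ratio was 3.15, the highest among the marker genes, and the log2 ratio of FPKM + 1 was 0.97, just short of 2-fold. Its start sum, its end sum and the form with exon 2 all gave these same values, and the skipping of exon 2 was listed at 0 in both. It was counted as measured through the knockout-labelled library alone. The relatives TM4SF1 and TM4SF5 stood at 315 and 283 FPKM (log2 ratio −0.15) and 7.43 and 10.8 FPKM (0.48). TM4SF18 was at 57.0 and 61.9 FPKM by its end events (0.12), while its start events alone gave 3.50, and TM4SF19 was listed at 0 in both.

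The promoter of TM4SF4 is printed because this gene lay nearest to the 2-fold limit: 150 bases before its start, chr3:149474547-149474696, plus strand, RefSeq on GRCh38.p14. TATAAA, in capitals, began at −31 from the start. AFP, TM4SF4 and RBP4 were the 3 of 7 genes with TATAAA in such a window. The 7 genes had 10 windows, as RBP4 and TF have more than 1. TATAAA was in 3 of the 10, against 6.71% of all RefSeq windows, and in only 1 of those of RBP4. This difference was not tested.
TM4SF4: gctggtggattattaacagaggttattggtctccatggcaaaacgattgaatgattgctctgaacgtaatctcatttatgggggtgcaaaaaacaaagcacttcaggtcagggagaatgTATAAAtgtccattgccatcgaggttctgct

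ASGR1, the main subunit of the receptor by which hepatocytes take up glycoproteins that have lost their sialic acid, was under the minimum in both libraries. The gene (ENSG00000141505.11, chromosome 17, 7173431 to 7179564, minus strand) had 0.184 FPKM in wild type, from an end event, and 0.42 FPKM in the knockout-labelled library, from a start event at 7178085 to 7178116. Its principal start was listed at 0 in both, so the values come from different parts of the gene, and their log2 ratio of 0.26 turned to −0.24 from end events alone. The partner subunit ASGR2 stood at 0.221 and 0.0902 FPKM. Neither subunit reached 1 FPKM in either library.

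GPC3 (ENSG00000147257.13, chromosome X, 133535745 to 133985895, minus strand) was listed at 0 for all 6 of its events in both libraries. Among the other glypicans, GPC1 stood at 113 FPKM for wild type and 71.9 FPKM for knockout-labelled cells, a log2 ratio of −0.65 from start events alone, GPC6 at 2.73 and 2.34 FPKM, and GPC2 at 0.767 and 0.469 FPKM. GPC4 and GPC5 were listed at 0 in both. The glypican with the highest listed level was thus GPC1 and not the tumour marker GPC3.

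The labelled cell type was set against 11 hepatocyte markers, of which 6 were measured. HNF4A, TF, AHSG, ALB and the fibrinogen chain FGB were among them, and TTR, APOA1, APOB, SERPINA1 and ASGR1 were under 1 FPKM in both libraries. Of 26 other plasma protein genes 9 were measured and 17 were not, 7 of them listed at 0 in both libraries. Of 27 enzyme and transporter genes of hepatocyte metabolism 7 were measured and 20 were not, CPS1, ARG1, PCK1 and CYP3A4 being among the latter. Of 21 liver transcription factors 12 were measured. Depth is unknown, so a level under 1 FPKM does not show that a gene is silent.

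Among the other plasma proteins, 7 of 9 measured genes were above 0 in log2 ratio, with a median of 0.11, and 2 were called higher and 1 lower. FGA, a fibrinogen chain, stood at 3.15 and 6.66 FPKM (0.88), CP, the copper oxidase ceruloplasmin, at 49.3 and 70.6 FPKM (0.51), and APOH, an apolipoprotein, at 39.4 and 42.6 FPKM (0.11). APOE, a lipoprotein ligand, stood at 6.20 and 2.36 FPKM (−1.10) and was the gene called lower. FGB, at 1.37 and 4.73 FPKM (1.27), and CFB, of complement, with 0 listed for wild type against 1.12 FPKM, were called higher and were named after their values were seen. Start and end sums agreed for FGA and APOH but not for CP, APOE, FGB or CFB.

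Enzymes of hepatocyte metabolism had 2 of 7 measured members above 0, with a median of −0.14. HPD, of tyrosine breakdown, stood at 10.2 FPKM in wild type against 3.50 FPKM in the knockout-labelled library (−1.32) and was called lower. CYP27A1, a sterol hydroxylase of bile acid synthesis, stood at 88.9 and 63.0 FPKM (−0.49), TDO2, which breaks down tryptophan, at 8.36 and 7.32 FPKM (−0.17), and BAAT, which joins bile acids to amino acids, at 8.35 and 7.50 FPKM (−0.14). The HPD and TDO2 values rest on start events alone, while start and end sums agreed for CYP27A1 and BAAT.

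Several other tumour and progenitor markers stood far above AFP and GPC3. Of 24 such genes 15 were measured, 7 above 0 and 8 below, with a median of −0.04. AKR1B10, an aldo-keto reductase, stood at 1013 FPKM for wild type and 1135 FPKM for the knockout-labelled library, and MDK, the growth factor midkine, at 917 and 851 FPKM. SPP1, or osteopontin, stood at 525 and 351 FPKM (−0.58), S100P at 92.7 and 58.1 FPKM (−0.66) and GOLM1, a Golgi membrane protein, at 83.1 and 123 FPKM (0.56). H19, an imprinted noncoding RNA of fetal liver, stood at 60.7 and 21.9 FPKM (−1.43) and was the 1 gene of this list called. Its start and end sums differed, with log2 ratios of −1.43 from starts and −1.64 from ends. AKR1B10 and MDK were named after their values were seen.

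Transcription factors of the liver lineage and regulators of AFP had 4 of 12 measured members above 0, a median of −0.11, and 0 called. FOXA2, a pioneer factor of endoderm, stood at 12.3 and 7.61 FPKM (−0.62), and ATF5 at 61.6 and 39.98 FPKM (−0.61). PROX1, a factor of the early liver, stood at 7.63 and 5.21 FPKM (−0.47) from start events alone. NR2F2 stood at 10.07 and 13.6 FPKM (0.40) by its ends and turned to −0.76 by its starts. ZHX2 and ZBTB20, repressors of AFP after birth in mice, stood at 1.72 and 1.19 FPKM and at 0.421 and 0.899 FPKM. Their values also rest on start events alone, and they were named after their values were seen.

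Partners, neighbours and relatives of the marker genes had 7 of 13 measured members above 0, a median of 0.10 and 0 called. LCN2, like RBP4 a secreted protein of the lipocalin family, stood at 47.4 and 95.04 FPKM (0.99) from start events alone. FTH1, the ferritin heavy chain, stood at 5875 and 4504 FPKM (−0.38) from starts, and its end events alone gave −11.07. STRA6, the membrane receptor for RBP4, stood at 22.4 and 21.3 FPKM (−0.07). Of the albumin family, AFM stood at 0.11 and 0.307 FPKM and GC was listed at 0 in both. Genes of any comparison list that are not among the 4 most different of their list were named after their values were seen.

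**Figure D5:**
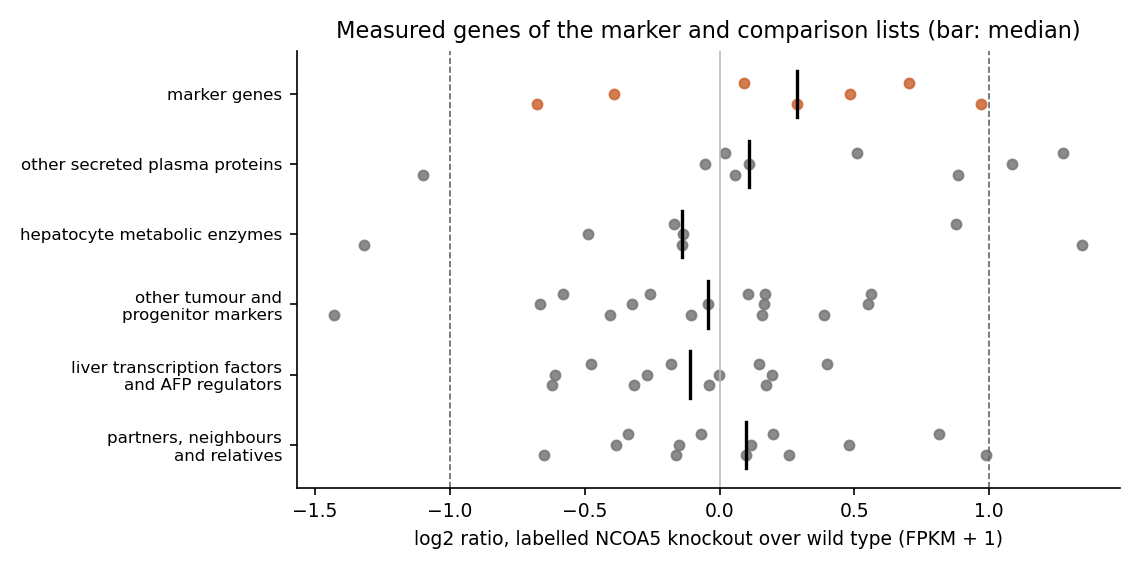
Log2 ratio of knockout-labelled over wild-type FPKM + 1 for each measured gene of the marker list (top) and the 5 comparison lists, with a bar at each median and dashed lines at 2-fold. The marker genes have a median of 0.29 (7 genes) and the other secreted plasma proteins one of 0.11 (9 genes), and the lists overlap over most of their range.

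Markers of other cell types were summed to show what moved beside these values. Stellate and fibroblast markers summed to 15.9 FPKM in wild type against 30.8 FPKM in the knockout-labelled library over 12 genes, of which 3 were measured, most of it from LUM, a matrix proteoglycan, at 14.005 and 27.2 FPKM (log2 ratio 0.91), with RGS5, DES and PDGFRA at 0 in both. Endothelial markers summed to 28.1 and 31.1 FPKM over 11 genes, with CLEC4G, STAB2 and EMCN at 0. Of the 5 measured, 2 were above 0 in log2 ratio and 3 below, with a median of −0.05. Those above were KDR at 1.43 and 5.20 FPKM (1.35) and ESAM at 22.3 and 23.3 FPKM (0.06). Those below were LYVE1 (−0.63), ENG (−0.61, and 0.602 from end events alone) and PECAM1 (−0.05), named after their values were seen. Leukocyte and Kupffer cell markers summed to 0.972 and 1.91 FPKM over 11 genes, with 8 listed at 0 in both. Cholangiocyte markers summed to 464 and 520 FPKM over 10 genes, 5 measured, among them KRT19 at 253 and 246 FPKM (−0.04), ANXA4 at 115 and 181 FPKM (0.66, and −1.01 from end events alone), KRT7 at 15.9 and 11.1 FPKM (−0.48) and SOX9 at 9.74 and 11.1 FPKM (0.17), with CFTR, AQP1 and SCTR at 0. The KRT19 and KRT7 values rest on start events alone. The part of other cell types in the marker gene values was not tested.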

How the data were processed

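Poly-A RNA of 2 libraries, 1 per genotype, was sequenced as paired ends, per the labels' protocols. Each library has 1 deposited table, in which the authors give FPKM per event, per the file headers. The submitters' processing notes name hg38 and Bowtie 0.12.2, without a role; no label or header names the program, annotation, filters or strand use behind the events. Without counts, depth and its precision are unknown and no interval was given.

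Rows of several genes (69298 events in wild type, 69012 in the knockout-labelled table) went to the gene with most of the event's junctions at its GENCODE 29 exon boundaries, and 2.2% and 2.17% of all events were unassigned. Totals, log2 ratios and the size rule of 2-fold were computed over all genes, with a pseudocount of 1 FPKM. No test was possible. The steps were tested on simulated data. Named genes were the 10 markers, NCOA5 and up to 4 members of each of 5 comparison and 5 cell type lists with the largest ratios in size, at 5 FPKM or more and above 0 in both libraries. Likeness of pattern between genes cannot be measured over 2 libraries. Markers and lists were chosen with earlier results of these data known. Alternatives were start or end events alone, largest events, another pseudocount, minimum and fold, 2 scalings and genes listed at 0 left out; the principal start alone was chosen after seeing the data. Python 3.11.15, numpy 2.4.6, pandas 2.3.3 and matplotlib 3.10.9 were used. Some genes of the comparison lists are counted but their values are not reported here.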

Additional observations from a re-analysis of the deposited data

How the results depend on the processing

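No paired analysis was possible because each genotype has 1 library, and for the same reason no library could be left out. The count of marker genes called was 0 higher and 0 lower. It became 1 higher of 5 measured from end events alone (AHSG) and 1 higher of 8 with TPM scaling (TM4SF4). With a pseudocount of 0.1 FPKM it was 2 higher and 1 lower of 7 (TM4SF4 1.54, ALB 1.003, AHSG −1.01). At 1.5-fold it was 2 higher and 1 lower of 7, and 85.4% of all measured genes lay within 1.5-fold. These counts are to be read beside those over all genes at the same settings, given next. TPM scaling gave 1.24 for TM4SF4. The counts over all genes were 315 higher and 410 lower of 10925. They were 461 and 501 of 7097 from end events alone, 451 and 576 of 10925 with a pseudocount of 0.1, and 475 and 597 of 11702 with TPM scaling. They were 167 and 234 of 8332 at a minimum of 5 FPKM, 127 and 212 of 10539 without genes listed at 0, and 711 and 889 of 10925 at 1.5-fold. Genes of the comparison lists past 2-fold numbered 6, and 2 from end events alone, 10 with a pseudocount of 0.1, 11 with TPM scaling, 3 at a minimum of 5 FPKM and 14 at 1.5-fold. The number of list genes measured at each setting is not given, so these list counts cannot be read as shares. At a minimum of 1 FPKM 1 splicing event, ALB exon 14, had both forms above 0, and at 5 FPKM 0 did. Of 63 values of 9 marker genes under alternatives (GPC3 is at 0), 50 kept their direction and side of the limit, 5 passed 2-fold, 4 were at 0 (TTR, TF and AMBP from end events alone, ASGR1 at the principal start alone) and 4 were of the other sign, none of them called before: AFP (0.38) and TF (−0.40) at the principal start alone, AHSG (1.13) and ASGR1 (−0.24) from end events alone. With single events included in the total, the median of the other secreted plasma proteins was 0.31 and that of the marker genes 0.29. The marker median moved more under other settings. It was 0.70 from end events alone (5 genes), 0.22 with TPM scaling (8 genes) and 0.38 at the principal start alone. It was 0.19 at a minimum of 5 FPKM (4 genes) and 0.18 with no minimum (10 genes). The cause was not tested, apart from the pseudocount, minimum and fold, which act by construction. The median shift from scaling was −0.0098 and 0.018 on the log2 scale. Unknown depth limits the genes under 1 FPKM most.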
